A study of Mus musculus with 4 samples.

Results

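The clustered protocadherin genes were examined in cultured mouse neural progenitors. They were taken as the entries whose gene symbols all follow the naming pattern of the *Pcdha*, *Pcdhb* and *Pcdhg* genes. This rule found 22 entries of 21091, and all 22 were genes of the beta cluster, *Pcdhb1* to *Pcdhb22*. The alpha and gamma genes were listed as 1 entry that joins 37 symbols, of which 14 are alpha symbols and 22 are gamma symbols. The remaining symbol, *Pcdha4-g*, does not follow the pattern, so the joined entry lies outside the rule and is given beside the beta genes. It carries 1 value per library, and no alpha or gamma gene can be read singly, including the C-type genes *Pcdhac1*, *Pcdhac2*, *Pcdhgc3*, *Pcdhgc4* and *Pcdhgc5*.

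CTL and *Stat3* cKO progenitors were sequenced at E11 and at E14, with 1 library for each of the 4 groups. The progenitors came from C57BL/6 embryonic brains at embryonic day 11 or 14 and were kept for 3 days in suspension, in serum-free medium with EGF and FGF, in which they form neurospheres. In *Stat3* cKO, both copies of *Stat3* are floxed and Cre is driven by a rat *Nestin* promoter and enhancer, so deletion follows *Nestin* expression. The sample labels call the other genotype WT. The animal methods name, as control, Nestin-Cre with 1 floxed and 1 intact *Stat3* copy, whereas the RNA-seq methods say wild-type, so Cre and *Stat3* loss cannot be told apart if the CTL embryos lacked Cre. How many embryos went into a library is not stated in the sources used here. Single libraries leave no replicate spread to measure a difference by, and no test was made.

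Protocadherins are cadherin-like adhesion proteins of the cell surface. The clustered genes lie in tandem, and each alpha or gamma gene joins its own variable exon to constant exons shared by its cluster, whereas each beta gene is encoded by a single variable exon. In neurons, single cells switch on different small sets of these genes, each from its own promoter, and the proteins bind only like proteins on other cells. The clusters are known for the self-recognition of neuronal branches and for the survival of neurons. RNA from many cells gives the average over such sets, and in it fewer expressing cells and less RNA per cell cannot be told apart.

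All 22 beta genes had a value above 0 in every library, and most values were near or under 1 FPKM. FPKM counts the fragments of a gene per kilobase of its length, scaled to all fragments mapped in that library. The median over the 22 genes was 0.883 FPKM in CTL against 0.806 in *Stat3* cKO at E11, and 1.12 against 0.955 at E14. Among all entries above 0 in at least 1 library, these medians stood between percentiles 39.8 and 44.8, a little under the middle. Of the 22 beta genes, 10 reached 1 FPKM in CTL against 8 in *Stat3* cKO at E11, and 12 against 11 at E14. The files list 1 locus for 25 entries, the 22 beta genes among them, on chromosome 18 from 37089938 to 38001526, on a build that they do not name, and so give no position for a single gene. On the GRCm38.p6 assembly of RefSeq, the start positions of the 22 genes follow their numbers, so the number stands for the order along the cluster here.

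*Pcdhb17* was the highest beta gene in all 4 libraries. It had 3.98 FPKM in CTL against 4.13 in *Stat3* cKO at E11, and 3.94 against 3.21 at E14. *Pcdhb22*, the last gene of the cluster, was the second in all 4 libraries, with 2.95, 2.99, 2.94 and 2.48 FPKM in the same order, which is CTL then *Stat3* cKO at E11 and then at E14. For both genes E14 *Stat3* cKO was the lowest and the other libraries lay close together as deposited. With upper-quartile scaling, which sets the upper quartile of the genes with a mean of 1 FPKM or more equal in the libraries, both E14 libraries were well below both E11 libraries, at 4.48, 4.43, 3.43 and 3.11 FPKM for *Pcdhb17* and 3.33, 3.21, 2.56 and 2.40 for *Pcdhb22*. *Pcdhb20* had 1.78 FPKM in CTL against 1.59 in *Stat3* cKO at E11, and 2.47 against 1.95 at E14. *Pcdhb19* had 1.75, 1.88, 2.44 and 2.11 FPKM in the same order. In both, each E14 library was above each E11 library as deposited. With upper-quartile scaling this no longer held for *Pcdhb20*, at 2.01 FPKM in E11 CTL and 1.89 in E14 *Stat3* cKO, and the *Pcdhb19* libraries lay between 1.97 and 2.12 FPKM. The lowest beta gene in every library was *Pcdhb1*, with 0.101 FPKM in CTL against 0.0949 in *Stat3* cKO at E11, and 0.0472 against 0.0777 at E14. *Pcdhb13* was the next lowest in every library, at 0.227 to 0.341 FPKM.

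The levels were not spread evenly over the cluster. The 2 highest genes, *Pcdhb17* and *Pcdhb22*, held 28.0% of the summed beta FPKM in CTL against 30.6% in *Stat3* cKO at E11, and 24.7% against 23.9% at E14. The 7 genes at the far end, *Pcdhb16* to *Pcdhb22*, held 57.8%, 61.9%, 56.1% and 56.0% in the same order, and the 15 genes before them the rest. The median level of these 7 genes was 1.75 FPKM in CTL against 1.59 in *Stat3* cKO at E11, and 2.44 against 1.95 at E14. That of *Pcdhb1* to *Pcdhb15* was 0.697, 0.626, 0.724 and 0.621 FPKM. The point of division was chosen after the values had been seen. Spearman's correlation of a gene's number with its level, over the 22 genes, was 0.61 in CTL and 0.64 in *Stat3* cKO at E11, and 0.64 and 0.69 at E14. That of the gene's RefSeq length with its level was 0.14 to 0.23, but that of its longest GENCODE M21 transcript was 0.51 to 0.61, and this length also went with the gene's number, at 0.59. Position and transcript length thus cannot be told apart here. FPKM divides by an annotated length, and the length used by the authors is not given in the sources used here.

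**Figure D1:**
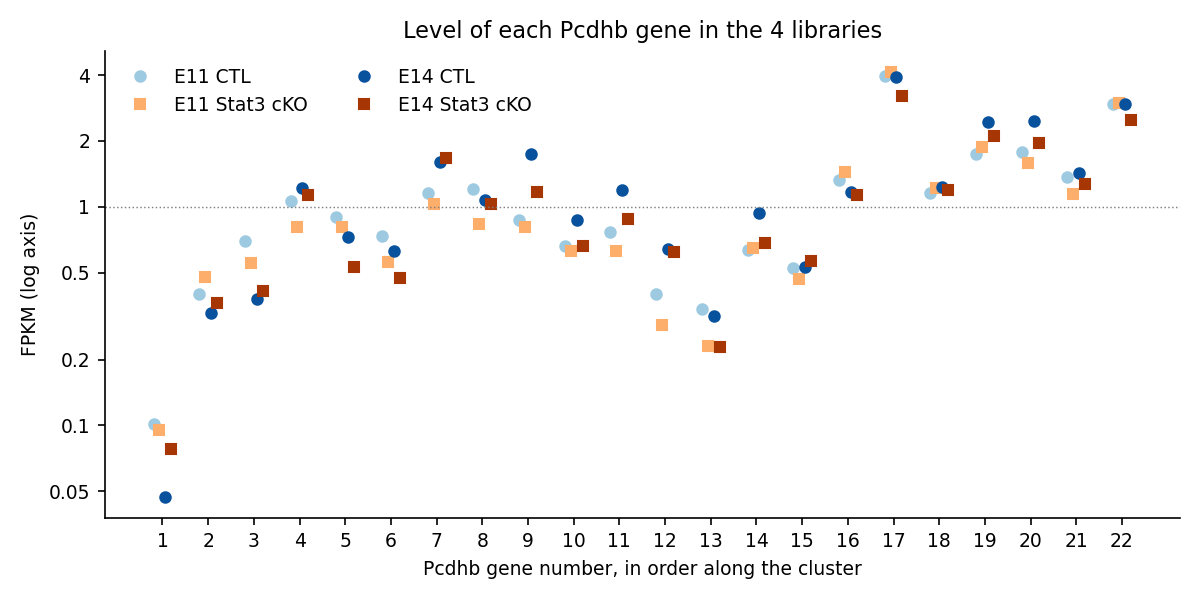
FPKM of each of the 22 *Pcdhb* genes on a log axis, in order along the cluster, with 1 point per library (circles CTL, squares *Stat3* cKO, light E11, dark E14) and a dotted line at 1 FPKM. The 7 genes from *Pcdhb16* on are above 1 FPKM in every library, with *Pcdhb17* the highest at 3.21 to 4.13 FPKM, and *Pcdhb1* is the lowest at 0.0472 to 0.101 FPKM.

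The order of the beta genes was alike in the 4 libraries, and most alike within a stage. Over the 22 genes, Spearman's correlation of the levels was 0.965 between the E11 libraries and 0.983 between the E14 libraries. Between libraries of different stages it was 0.892 to 0.919. The 22 genes share a locus, related sequences and the depth of each library, so these values describe the libraries only. In transcripts of GENCODE M21, between 0% and 12% of the 50-base stretches of a beta gene also occurred in another beta gene. For stretches of 100 bases the highest share was 7.73%, in *Pcdhb21*. *Pcdhb12* stood apart, because 62.3% of its 100-base stretches also occurred in *Gm37446*, another annotated gene. Reads from such stretches cannot be assigned to 1 gene, and the value of *Pcdhb12* is uncertain for this reason.

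The joined alpha and gamma entry had 65.4 FPKM in CTL against 63.8 in *Stat3* cKO at E11, and 64.4 against 70.6 at E14. As deposited, the 2 E11 libraries and E14 CTL lay close together and E14 *Stat3* cKO was the highest, but under upper-quartile scaling the values were 73.7, 68.5, 56.1 and 68.4 FPKM, with E11 CTL the highest and E14 CTL the lowest. The 22 beta genes together summed to 24.8 FPKM in CTL against 23.3 in *Stat3* cKO at E11, and 27.8 against 23.8 at E14. E14 CTL had the highest beta sum as deposited, but under upper-quartile scaling the sums were 27.9, 25.0, 24.2 and 23.1 FPKM, with E11 CTL the highest and E14 CTL below both E11 libraries. Within a library the ratio of the joined entry to the beta sum does not depend on how libraries are scaled. It was 2.64 in CTL and 2.74 in *Stat3* cKO at E11, and 2.32 and 2.96 at E14, so the E14 libraries had the lowest and the highest ratio. Between genotypes, the joined entry stood at 1.1 times its CTL level at E14, and at 0.975 times at E11. Between stages, it was 0.985 times E11 in CTL and 1.11 times E11 in *Stat3* cKO. With upper-quartile scaling the log2 ratio between stages was -0.39 in CTL and -0.0016 in *Stat3* cKO. The locus also holds *Taf7*, a subunit gene of the general transcription factor TFIID, and *Slc25a2*, a mitochondrial carrier gene, which start between the beta and gamma genes in RefSeq. *Taf7* had 17.7 to 20.3 FPKM and *Slc25a2* had 0.653 to 0.862 FPKM over the 4 libraries.

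**Figure D2:**
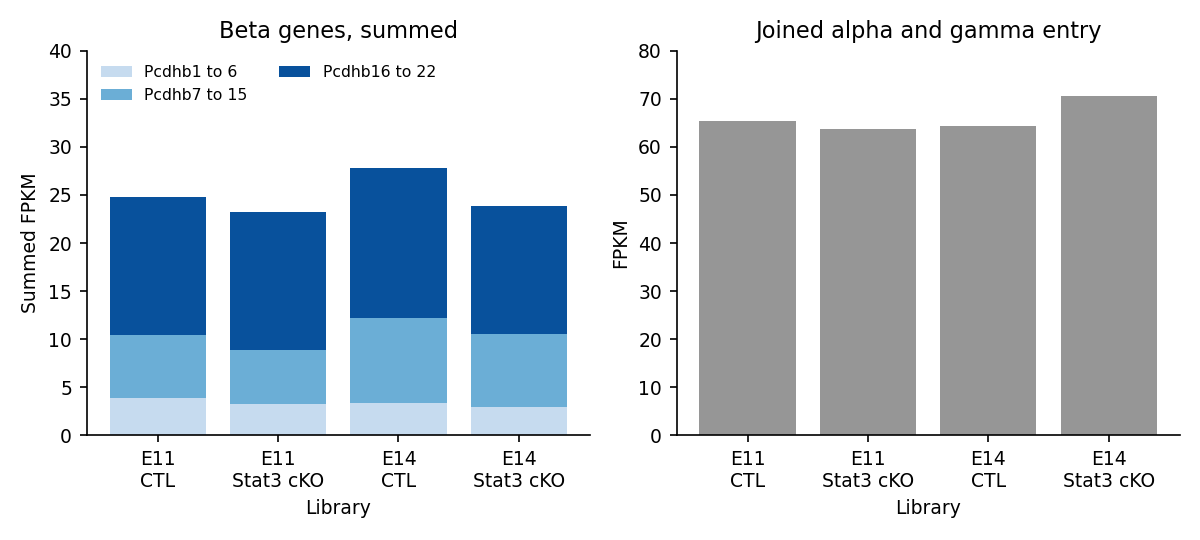
Summed FPKM of the beta genes in each library, stacked by position in the cluster (left), and FPKM of the joined alpha and gamma entry (right), as bars from 0. As deposited, the beta sum is highest in E14 CTL at 27.8 FPKM and the joined entry in E14 *Stat3* cKO at 70.6 FPKM, whereas under upper-quartile scaling E11 CTL is highest for both, at 27.9 and 73.7 FPKM.

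The ratio of E14 to E11 differed between neighbouring groups of beta genes, and in both genotypes it was mostly below 1 in the first group and above 1 in the next. At the near end of the cluster, 5 of the 6 genes *Pcdhb1* to *Pcdhb6* had the lower level at E14 in each genotype, *Pcdhb4* being higher in both as deposited. With upper-quartile scaling all 6 were lower in CTL, *Pcdhb4* included, and 5 of 6 in *Stat3* cKO. Of the 9 genes *Pcdhb7* to *Pcdhb15*, 7 were higher at E14 in CTL and 8 in *Stat3* cKO, and with upper-quartile scaling 6 were higher in each. Of all genes with a ratio, 48% were higher at E14 in each genotype as deposited. With upper-quartile scaling 32% of all genes were higher and 68% lower in CTL, and 40.9% and 59.1% in *Stat3* cKO. Median log2 ratios of E14 to E11 were -0.30 in CTL and -0.34 in *Stat3* cKO for the first 6 genes, 0.47 and 0.29 for the next 9, and 0.059 and -0.029 for *Pcdhb16* to *Pcdhb22*. Upper-quartile scaling put them at -0.67 and -0.49, at 0.10 and 0.15, and at -0.31 and -0.18. The groups were chosen after the values had been seen. Summed over genes, *Pcdhb7* to *Pcdhb15* had 1.68 times the level of *Pcdhb1* to *Pcdhb6* in E11 CTL and 1.69 times in E11 *Stat3* cKO. In E14 CTL this ratio was 2.68 and in E14 *Stat3* cKO it was 2.51, so both E14 libraries were above both E11 libraries. Because it is taken within a library, it is the same under every scaling. Over the 22 genes, the log2 ratio of E14 to E11 in CTL and that in *Stat3* cKO, which come from separate libraries, had a Spearman's correlation of 0.81. The Y-linked gene *Ddx3y* was listed at 0 in E11 *Stat3* cKO and at 25.1 FPKM in E14 *Stat3* cKO. Sex and stage therefore cannot be told apart in the stage ratios of *Stat3* cKO.

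*Pcdhb9* showed the highest stage ratio in CTL among the 11 beta genes with a mean of 1 FPKM or more. It had 0.866 FPKM in CTL against 0.810 in *Stat3* cKO at E11, and 1.73 against 1.16 at E14. Both E14 libraries were above both E11 libraries, by a log2 ratio of 1.0 (CTL) and 0.52 (*Stat3* cKO). *Pcdhb7* had 1.16, 1.03, 1.60 and 1.68 FPKM in the same order of libraries, with log2 ratios of 0.47 (CTL) and 0.71 (*Stat3* cKO). It too was higher in both E14 libraries. *Pcdhb4*, with 1.07, 0.804, 1.21 and 1.14 FPKM, had log2 ratios of 0.18 (CTL) and 0.50 (*Stat3* cKO) as deposited, and the first turned negative with upper-quartile scaling, at 1.2 FPKM in E11 CTL against 1.06 in E14 CTL. At the other end, *Pcdhb16* had 1.33, 1.45, 1.17 and 1.13 FPKM and was lower in both E14 libraries, with log2 ratios of -0.19 and -0.36. *Pcdhb8* went opposite ways, with 1.21 and 0.838 FPKM at E11 in CTL and *Stat3* cKO, then 1.08 and 1.03 FPKM at E14. Among genes under the minimum, *Pcdhb12* had 0.400, 0.287, 0.640 and 0.621 FPKM and *Pcdhb3* had 0.697, 0.552, 0.379 and 0.411 FPKM, again with E11 before E14 and CTL before *Stat3* cKO. The stages did not overlap in either gene, *Pcdhb12* being higher and *Pcdhb3* lower at E14. Both were singled out from their values.

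Few beta genes reached a 2-fold difference between stages. In CTL, 1 of the 11 genes with a mean of 1 FPKM or more, *Pcdhb9*, was at least 2-fold higher at E14, and none was 2-fold lower. Of all genes with that mean, 14.6% reached 2-fold upwards and 12.5% downwards in this comparison. In *Stat3* cKO, none of the 11 reached 2-fold in either direction, against 10.1% of all genes higher and 11.7% lower. Over all 22 beta genes, *Pcdhb9* was 2-fold higher and *Pcdhb1*, with a log2 ratio of -1.10, 2-fold lower in CTL, against 12.4% and 25.3% of all genes with a ratio. With upper-quartile scaling none was 2-fold higher in CTL and 2 were 2-fold lower, against 6.33% and 33.4% of all genes. In *Stat3* cKO, *Pcdhb12* was 2-fold higher, with a log2 ratio of 1.11, and none was lower, against 11.8% and 17.4%. With that scaling none was higher or lower, against 9.73% and 20.1%. At a lower threshold of 1.5-fold, 1 of the 11 was higher in each genotype, *Pcdhb9* in CTL and *Pcdhb7* in *Stat3* cKO, against 30.3% and 21.6% of all genes, and none was lower (18.9% and 20.1%). The median log2 ratio of the 11 genes was 0.090 in CTL and 0.17 in *Stat3* cKO, beside 0.21 and 0.058 for all genes. In CTL their median was thus below that of all genes, and it was -0.28 with upper-quartile scaling. Over all 22 genes, 12 were higher at E14 in each genotype as deposited, against 48% of all genes in each. With upper-quartile scaling 8 of 22 were higher in CTL and 10 of 22 in *Stat3* cKO, against 32% and 40.9% of all genes on that scale.

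**Figure D3:**
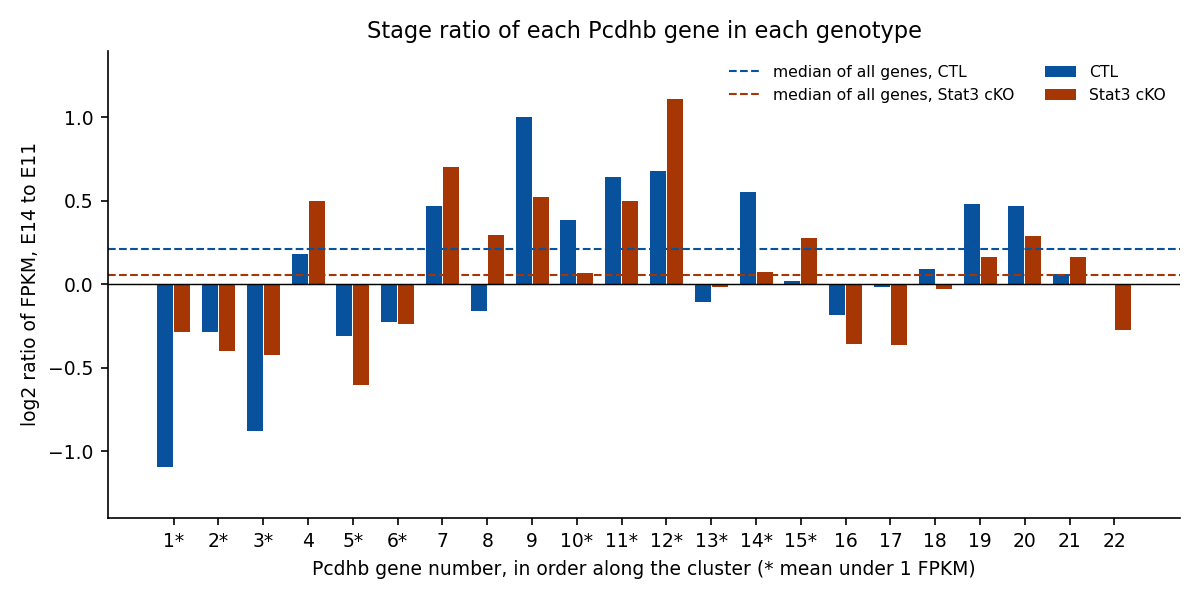
Log2 ratio of FPKM at E14 to E11 for each *Pcdhb* gene in CTL (blue) and *Stat3* cKO (brown), in order along the cluster, with dashed lines at the median of all genes with a mean of 1 FPKM or more (0.21 and 0.058). Bars are mostly below 0 from *Pcdhb1* to *Pcdhb6* and mostly above 0 from *Pcdhb7* to *Pcdhb15* in both genotypes, which with upper-quartile scaling held for 6 of these 9 in each. On that scale 32% (CTL) and 40.9% (*Stat3* cKO) of all genes with a ratio were above 0.

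The E11 and E14 libraries also differed in markers of other cells. The 7 mesenchyme markers, *Col3a1*, *Col1a1*, *Col1a2*, *Dcn*, *Lum*, *Twist1* and *Pdgfrb*, summed to 1326 FPKM in CTL against 1171 in *Stat3* cKO at E11, and 15.9 against 10.4 at E14. All 7 were at least 2-fold lower at E14 in both genotypes. The 12 neuron markers summed to 746 FPKM in CTL against 768 in *Stat3* cKO at E11, and 1113 against 944 at E14. *Tubb3*, the highest of them, had 463, 510, 569 and 517 FPKM in the same order. Of the 12, 8 were higher at E14 in CTL and 7 in *Stat3* cKO, with *Neurod1*, *Nefl*, *Rbfox3* and *Tbr1* lower in both. Of all genes with a mean of 1 FPKM or more, 7525 of 12430 were higher in CTL and 6627 of 12426 in *Stat3* cKO. The 9 radial glia markers were present in every library and summed to 1585, 1745, 7519 and 8160 FPKM in the same order, but without *Fabp7*, the highest of them, to 1069, 1151, 2274 and 2231 FPKM. They did not move together, since *Sox2* and *Nes* were higher at E14 in both genotypes and *Pax6*, *Hes1* and *Prom1* lower. The 6 astrocyte markers summed to 20.3 to 23 FPKM at E11 and 282 to 389 at E14, and the 7 oligodendrocyte lineage markers to 73.0 to 94.2 and 550 to 567 FPKM. Without *Olig1* and *Olig2* the latter summed to 59.5 FPKM in CTL against 75.9 in *Stat3* cKO at E11, and 54.1 against 105 at E14. The 6 intermediate progenitor markers summed to 169, 186, 113 and 192 FPKM, and 6 of 6 were lower at E14 in CTL (median log2 stage ratio -0.48) and 4 of 6 in *Stat3* cKO (median -0.54). *Neurog1* and *Neurog2* were more than 2-fold lower in both. The 6 microglia and 4 endothelium markers each summed to at most 5.87 FPKM in any library, and the microglia marker *Aif1* was listed at 0 in E14 CTL. The part of these cells in the stage ratios of the beta genes was not tested.

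The beta genes were compared between genotypes by the genotype ratio, *Stat3* cKO to CTL, at each stage. *Stat3* itself had 7.41 FPKM in CTL against 6.74 in *Stat3* cKO at E11, and 27.6 against 9.55 at E14, so its level in *Stat3* cKO was near that of CTL at E11 and well below it at E14. The Y-linked gene *Ddx3y* reached 25.1 FPKM in the E14 *Stat3* cKO library but 0.0569 in E14 CTL, and was listed at 0 at E11. Sex and genotype thus cannot be told apart at E14, nor sex and stage in *Stat3* cKO. At E14, 17 of the 22 beta genes had the lower level in *Stat3* cKO, against 54.2% of all genes. The median log2 ratio over the 22 was -0.19, and the beta sum was 0.857 times CTL. Under upper-quartile scaling the number of lower genes was 12, with a median of -0.036, against 36.8% of all genes on that scale. At E11, 15 of the 22 were lower, against 49% of all genes. The median was -0.16 and the beta sum 0.939 times CTL, and under upper-quartile scaling the number was 19, with a median of -0.23, against 58.7% of all genes.

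None of the 22 beta genes reached 2-fold between genotypes at either stage, against 8.21% of all genes with a ratio higher and 4.82% lower at E14, and 2.3% and 9.11% at E11. Of all genes with a mean of 1 FPKM or more, 1.85% were 2-fold higher and 1.69% 2-fold lower at E14, and 0.209% and 1.12% at E11. At 1.5-fold, none of the 11 beta genes with that mean was called in either direction at either stage. The corresponding shares of all genes were 5.82% higher and 7.67% lower at E14, and 2.18% and 3.66% at E11. At E14 the smallest genotype ratio among the 11 was that of *Pcdhb9*, whose log2 ratio was -0.57, followed by *Pcdhb20* at -0.34 and *Pcdhb17* at -0.29. The largest was that of *Pcdhb7* at 0.065, with *Pcdhb16* at -0.045 and *Pcdhb18* at -0.056 next to it. *Pcdhb18* had 1.16 FPKM in CTL against 1.21 in *Stat3* cKO at E11, and 1.23 against 1.19 at E14, so that its deposited values lay close together, whereas with upper-quartile scaling both E14 libraries were below both E11 libraries. At E11 the smallest log2 ratios were those of *Pcdhb8* at -0.53, *Pcdhb4* at -0.41 and *Pcdhb21* at -0.27. The largest were those of *Pcdhb16* at 0.13, *Pcdhb19* at 0.11 and *Pcdhb18* at 0.063. *Pcdhb21* had 1.37 and 1.14 FPKM in CTL and *Stat3* cKO at E11, and 1.43 and 1.27 at E14, and was lower in *Stat3* cKO at both stages.

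Over the 22 genes, Spearman's correlation between the log2 genotype ratio at E11 and that at E14 was 0.13, whereas that between the stage ratios was 0.81. The 7 genes *Pcdhb16* to *Pcdhb22* were all lower in *Stat3* cKO at E14, by a median log2 ratio of -0.21, but 5 of 7 with upper-quartile scaling. The E11 median of these 7 genes was 0.054, with 5 of 7 above CTL, but 2 of 7 with that scaling. The 9 genes *Pcdhb7* to *Pcdhb15* had a median of -0.40 at E14, where 7 of 9 were lower, and -0.17 at E11, where 8 of 9 were lower. With that scaling 5 of 9 were lower at E14 and 9 of 9 at E11. Of all genes with a ratio, 54.2% were lower in *Stat3* cKO at E14 and 49% at E11 as deposited. With that scaling the shares were 36.8% and 58.7%. *Pcdhb13*, 1 of the 9 genes, was lower at both stages, with 0.341 FPKM in CTL against 0.230 in *Stat3* cKO at E11, and 0.318 against 0.227 at E14. The largest log2 genotype ratio of any beta gene was that of *Pcdhb1* at E14, 0.72, between 2 values under 0.1 FPKM. Of the 12 neuron markers, 11 were lower in *Stat3* cKO at E14, the median log2 ratio being -0.32, and 10 were lower at E11, with a median of -0.25. Of all genes with a mean of 1 FPKM or more, 7475 of 12430 were lower at E14 and 4753 of 12430 at E11. Other marker lists differed between the genotypes too. Their median log2 genotype ratio at E14 was 0.80 for the 5 astrocyte markers with a mean of 1 FPKM or more, 0.77 for 7 oligodendrocyte lineage markers, 0.54 for 6 intermediate progenitor markers, 0.18 for 9 radial glia markers and -0.83 for 7 mesenchyme markers. The astrocyte marker under that mean, *Gfap*, went the other way, at 0.901 FPKM in CTL against 0.186 in *Stat3* cKO at E14. At E11 these medians were -0.16, 0.25, 0.19, 0.12 and -0.079. Some markers went against their list's E14 median. Lower in *Stat3* cKO were *Eomes*, at 7.33 FPKM against 8.5 in CTL, *Olig1*, *Olig2*, *Hes1* and *Vim*. Higher were the mesenchyme markers *Pdgfrb* (log2 ratio 1.34) and *Col1a1* (0.082). *Lum*, *Col1a1* and *Twist1* were under 1 FPKM in both E14 libraries and passed the minimum mean through E11. The paper reports that most of its intermediate progenitor markers were lower in *Stat3* cKO. The part of these cells and of neurons in the genotype ratios of the beta genes was not tested.

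**Figure D4:**
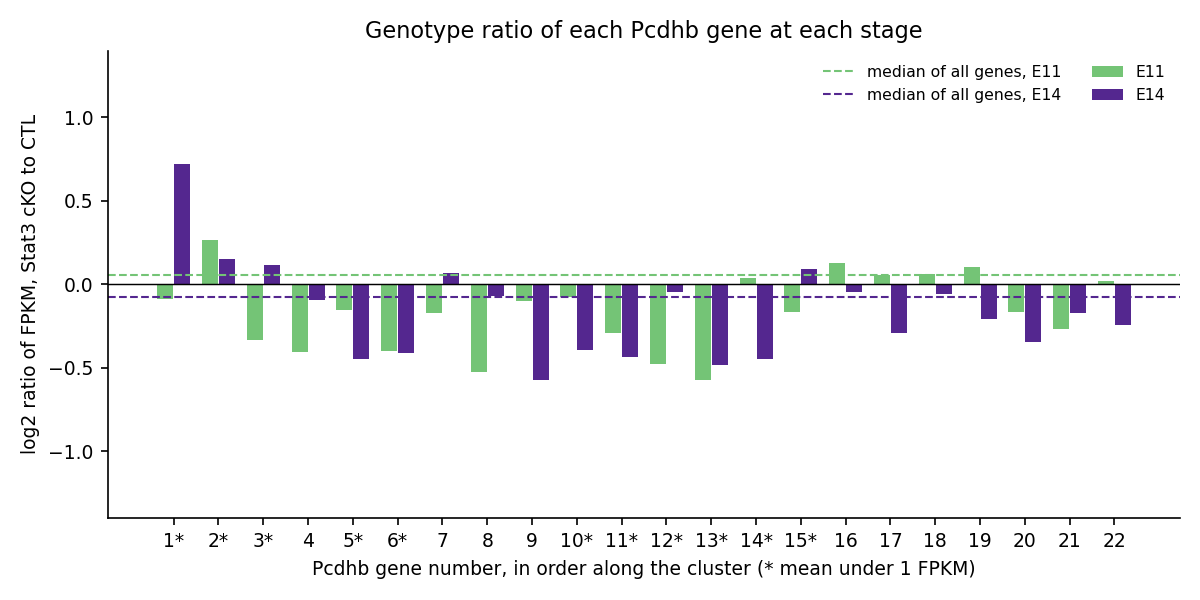
Log2 ratio of FPKM in *Stat3* cKO to CTL for each *Pcdhb* gene at E11 (green) and E14 (purple), in order along the cluster, with dashed lines at the median of all genes with a mean of 1 FPKM or more (0.059 and -0.079). No bar reaches 1 or -1, and all 7 E14 bars from *Pcdhb16* to *Pcdhb22* are below 0 as deposited and 5 of 7 with upper-quartile scaling. Of all genes with a ratio, 54.2% were below 0 at E14 as deposited and 36.8% with that scaling.

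The non-clustered protocadherins, which are single genes outside the locus listed for the clusters, included genes with larger stage ratios than any beta gene. Of 14 listed symbols 13 were found, and 11 had a mean of at least 1 FPKM. Between stages in CTL, 1 of the 11 was at least 2-fold higher at E14 and 2 were 2-fold lower, and in *Stat3* cKO 5 were higher and 2 lower. The shares of all genes were 14.6% higher and 12.5% lower in CTL, to which the counts in CTL were near, and 10.1% and 11.7% in *Stat3* cKO. *Pcdh18* had 37.6 FPKM in CTL against 43.4 in *Stat3* cKO at E11, and 5.67 against 5.70 at E14, and so was lower at E14 by log2 ratios of -2.73 and -2.93. *Pcdh19* was lower as well, at 5.37 and 4.72 FPKM in the E11 libraries and 2.42 and 2.29 in the E14 libraries. *Pcdh10* went the other way, with 14.4 FPKM in CTL against 14.9 in *Stat3* cKO at E11, and 26.6 against 46.2 at E14. *Pcdh15*, a cadherin of the hair cell tip link, had 0.544, 0.377, 2.71 and 3.99 FPKM in the same order. The other genes at least 2-fold higher at E14 in *Stat3* cKO were *Pcdh11x*, from 1.56 to 5.18 FPKM, *Pcdh1*, from 0.972 to 2.42, and *Pcdh17*, from 2.95 to 6.55. Between genotypes none of the 11 reached 2-fold at either stage, the nearest being *Pcdh11x* at E11 with 3.00 FPKM in CTL against 1.56 in *Stat3* cKO. *Pcdh11x* did reach 2-fold there with upper-quartile scaling, at a log2 ratio of -1.01, and with ratios centred on the all-gene median.

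**Figure D5:**
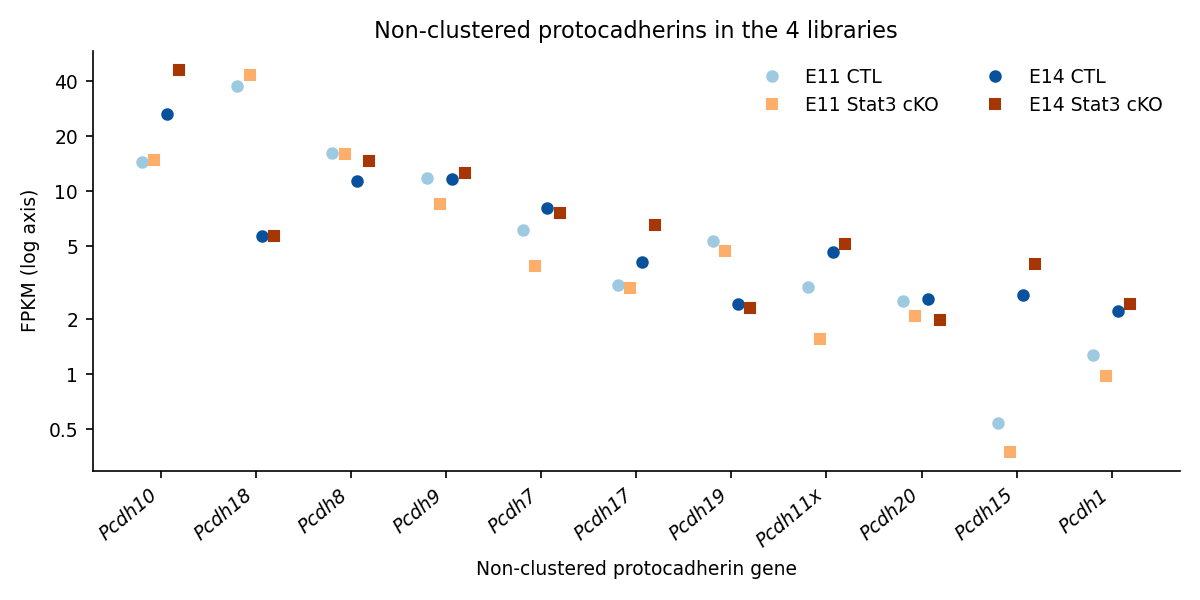
FPKM of the 11 non-clustered protocadherins with a mean of 1 FPKM or more, on a log axis, with 1 point per library (circles CTL, squares *Stat3* cKO, light E11, dark E14). *Pcdh18* lies at 37.6 and 43.4 FPKM at E11 and at 5.67 and 5.70 at E14, and *Pcdh10* is highest in E14 *Stat3* cKO at 46.2 FPKM.

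Genes that act on the clusters were present in every library. CTCF and the cohesin complex are known to loop active protocadherin promoters to distant enhancers. *Ctcf* had 25.2 FPKM in CTL against 34.5 in *Stat3* cKO at E11, and 26.9 against 26.1 at E14, and was highest in E11 *Stat3* cKO. The cohesin subunit *Rad21* had 41.4, 49.1, 43.7 and 47.9 FPKM in the same order. *Dnmt3b*, a DNA methyltransferase known to methylate these promoters in the early embryo, had 1.15, 1.99, 0.905 and 1.05 FPKM. *Smchd1*, a chromatin protein known to restrain the clusters, had 27.0, 30.2, 31.9 and 22.1 FPKM. Of 25 such regulators with a mean of 1 FPKM or more, none reached 2-fold between genotypes at either stage. Between stages, 4 were 2-fold lower at E14 in CTL and 4 in *Stat3* cKO, and none was higher, against 12.5% and 11.7% of all genes 2-fold lower. As deposited, this share of the 25 was near that of all genes, and with upper-quartile scaling 8 were 2-fold lower in CTL and 9 in *Stat3* cKO, against 18% and 13.7% of all genes on that scale. *Rest*, a repressor of neuronal genes, had 13.7 and 15.2 FPKM at E11 and 4.76 and 5.13 at E14, in CTL and *Stat3* cKO, and *Tet3*, which oxidises methylated DNA, had 7.78 and 8.09, then 3.13 and 3.09. *Dnmt3a* was 2-fold lower in both genotypes, *Wiz* in CTL and *Nipbl* in *Stat3* cKO. *Trim28*, *Stag2* and *Ehmt2* had the highest means of the list.

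Among 20 partners and cleavage enzymes of the proteins with that mean, *Fyn*, a kinase of the Src family, was 2-fold higher at E14 in both genotypes, and *Nlgn1*, a postsynaptic adhesion gene, in *Stat3* cKO. *Fyn* lay at the threshold, and with upper-quartile scaling it was 1.55-fold higher in CTL and 1.91-fold in *Stat3* cKO. *Cyfip2*, of the WAVE complex, was 2-fold lower at E14 in CTL, and *Adam10*, which cleaves gamma protocadherins, in *Stat3* cKO. These were 1 higher and 1 lower of 20 in CTL and 2 higher and 1 lower in *Stat3* cKO, below or near the shares of all genes given above. With upper-quartile scaling they were 0 higher and 4 lower in CTL, against 7.21% and 18% of all genes on that scale, and 1 and 2 in *Stat3* cKO, against 8.06% and 13.7%. None of the 20 reached 2-fold between genotypes, and *Marcks*, *Rac1* and *Rhoa* had the highest means. Of 12 classical cadherins, *Cdh13*, *Cdh10* and *Cdh20* were 2-fold higher at E14 in both genotypes, against 14.6% of all genes in CTL and 10.1% in *Stat3* cKO, but *Cdh10* in CTL not with upper-quartile scaling, at 1.85-fold. *Cdh11* was 2-fold lower in both and *Cdh6* in CTL, against 12.5% and 11.7%, and *Cdh11*, *Cdh2* and *Cdh13* had the highest means. With upper-quartile scaling *Cdh8* in CTL and *Cdh6* in *Stat3* cKO were 2-fold lower too, and so was the giant cadherin *Celsr3* in both genotypes. Of 7 giant cadherins, *Fat1*, *Fat4* and *Celsr2* were 2-fold lower at E14 in both genotypes and *Fat3* in CTL, against the same 12.5% and 11.7% of all genes. *Celsr1* was 2-fold above CTL in E14 *Stat3* cKO, against 1.85% of all genes, and *Fat4*, *Dchs1* and *Fat1* had the highest means.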

How the data were processed

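RNA-seq of 4 libraries, 1 per group, was used. The authors checked reads with FastQC and ran the TopHat-Cufflinks workflow, and they deposited FPKM values. The submitters' processing notes name Bowtie 0.12.2 and the builds mm8 and mm9, with no roles given, so coordinates are printed as listed. Versions of TopHat and Cufflinks and the annotation are not given in the sources used here. Read counts are unknown. Relative to E14 *Stat3* cKO, set to 1, the most frequent ratio among values under 0.1 FPKM put depth at 1.07 (E11 CTL), 0.835 (E11 *Stat3* cKO) and 0.938 (E14 CTL). Values of 0 numbered 330 to 1589 per library, and FPKM summed to 806587 to 1461770, of which the 10 highest entries held 36.0% to 49.9%.

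Ratios were plain ratios of FPKM without a pseudocount, with no ratio where a value was 0. Counts of 2-fold differences used entries whose 4-library mean reached 1 FPKM, which 11 of the 22 beta genes passed. Counts over all 22 used no minimum and stand beside all genes with a ratio. Background shares are shares of all genes with a ratio in the same comparison, direction and minimum. Members, lists and tests were chosen with earlier results of these data known. The naming rule took the C-type genes, joined entries of the clusters, the 5 highest beta genes, the 3 largest and 3 smallest ratios in each comparison, and beta genes 2-fold apart in 1 direction at both stages, of which there were none. In the other lists it took genes at 2-fold and the 3 highest. Other genes named were chosen after their values were seen.

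Shared stretches were counted over the longest GENCODE M21 transcript of each beta gene against transcripts of all other genes. All 22 symbols were found in RefSeq, which gave order and a length, and GENCODE lengths of the same genes differ from it. Promoter and protein sequences were not used here. Steps were tested on simulated data. Python 3.11.15, numpy 2.4.6, pandas 2.3.3, scipy 1.17.1 and matplotlib 3.10.9 were used. Alternatives were pseudocounts of 0.1 and 1 FPKM, minimum means of 0.1 and 5 FPKM, thresholds of 1.5 and 3, 2 rescalings of the libraries and leaving out joined entries.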

Additional observations from a re-analysis of the deposited data

Results flagged for a closer look

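Genes were looked at again where *Stat3* cKO and CTL differed by at least 1.2-fold in opposite directions at the 2 stages, among the beta genes, the joined entry and the non-clustered protocadherins with a mean of at least 1 FPKM. No beta gene did so. *Pcdh15* did, with a log2 genotype ratio of -0.53 at E11 and 0.56 at E14. Each value rests on 1 library per group, and the difference between stages was not tested. Among the same entries none had stage ratios of that size in opposite directions in CTL and *Stat3* cKO as deposited. These flags used the deposited values, were not repeated with rescaled libraries and can change with the scaling.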

How the results depend on the processing

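No group had a replicate, so no library could be left out. No paired analysis was possible because each group holds 1 library. Medians planned for the alpha and gamma clusters could not be given, since these genes form 1 joined entry, and with a minimum mean of 5 FPKM no beta gene was left. With single FPKM values a log2 ratio was taken as moved past a shift of 0.1, and a count past 1.5 times. The count of 1 beta gene 2-fold higher at E14 in CTL was 0 with ratios centred on the all-gene median, with upper-quartile scaling, with a pseudocount of 0.1 or 1 FPKM and with a threshold of 3, since *Pcdhb9* lies at the threshold. The count of 0 in *Stat3* cKO was 1 with a minimum mean of 0.1 FPKM and with a threshold of 1.5. With that centring, the stage log2 ratio in CTL was -0.12 for the median of the 11 beta genes and -0.24 for the joined entry. With upper-quartile scaling, these were -0.28 and -0.39, the median in *Stat3* cKO was 0.018, and the joined entry in *Stat3* cKO changed sign, to -0.0016. Under that scaling the genotype log2 ratio at E14 was -0.017 for the median and 0.28 for the joined entry. It also moved the beta sum to 27.9 and 25.0 FPKM in CTL and *Stat3* cKO at E11 and to 24.2 and 23.1 at E14, and the joined entry to 73.7, 68.5, 56.1 and 68.4 FPKM, so that E11 CTL was the highest for both. Its factors were 1.13 and 1.07 for CTL and *Stat3* cKO at E11, and 0.871 and 0.969 at E14. Values under 0.1 FPKM rest on few fragments, and their number is unknown.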
